A study of Homo sapiens with 13 samples.

Results

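ATF4 and 8 genes of the amino acid stress response (DDIT3, ASNS, CHAC1, DDIT4, SESN2, PSAT1, PHGDH and SLC7A11) were taken by gene name from the 14575 genes that had at least 1 read in the 3’ READS libraries. The study asks how the speed of RNA polymerase II affects where poly(A) tails are added. The 3’ READS method sequences the end of each poly(A) RNA, so that a gene has a total read count and a share of reads at every 3’ end (isoform). The cells were HEK293 Flp-in TREX, a human embryonic kidney line, that carried an α-amanitin resistant Rpb1, the largest polymerase subunit, either wild-type (5 libraries) or with the slow substitution R749H (4 libraries). The titles of all 9 libraries name an Avitag, a short peptide tag, on Rpb1. In both groups, doxycycline (2 µg/ml, 24 hr by the labels) induced the resistant Rpb1 and α-amanitin (2.5 µg/ml, 42 hr) inactivated the cells' own enzyme. For the 3’ READS cells the paper gives a shorter time in doxycycline alone, and doxycycline was kept on during α-amanitin. The groups therefore differ by Rpb1 and by cell line, which cannot be told apart here, and whether a line is 1 clone is not given in the sources used here.

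ATF4 is a transcription factor whose mRNA is translated better when eIF2, the factor that brings the initiator tRNA to the ribosome, is phosphorylated. Kinases that sense uncharged tRNA, misfolded proteins in the endoplasmic reticulum (ER), heme shortage or double-stranded RNA phosphorylate eIF2. ATF4 then turns on genes for amino acid synthesis, amino acid import and tRNA charging, and DDIT3 (CHOP) adds genes tied to cell death. ATF4 is therefore controlled to a large extent at translation, which mRNA ends do not measure.

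Libraries held 2479851 to 10135014 reads within 5 kb of a stop codon in wild-type and 3863468 to 6475987 in R749H. The third R749H library stands apart: of its 41033 isoforms, 6.60% rested on only 1 read, whereas 30 to 36.2% did elsewhere. Of the markers of HEK293 cells, VIM, KRT8 and KRT18 had reads in every library, NEFM had 2 reads in all and NEFL had none, and ALB, INS, PTPRC, CD3E and COL1A2 (liver, pancreas, blood and fibroblasts) had 0 to 3 reads in all. Some line markers moved with the groups: VIM was at 74.8 to 141.7 CPM (reads per 1 M) in wild-type and 55.3 to 70.0 in R749H (log2 change -0.66, limma adjusted p = 0.0172), and PAX2 was at 1.28 to 4.08 and at 0 to 0.869, and their part in the results was not tested. POLR2A, which encodes Rpb1, was at 60.5 to 124.5 CPM in wild-type and 253.0 to 519.6 in R749H (log2 change 2.12, limma adjusted p = 6.9e-06). Whether these reads came from the introduced Rpb1 or from the cells' own gene was not tested. Reads at 3’ ends do not cover the substitution, so that they check no label.

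The 3’ ends of the members are shown first, because all reads come from them. Each line gives the 30 bases up to and including the most used end of a gene, in the direction of the mRNA (GRCh37), with the poly(A) signal AATAAA or ATTAAA in capitals and the distance from the stop codon after the gene name:
ATF4 +78, chr22:39918656-39918685, plus strand: ctgtgtgttccAATAAAttattttgtaggg
DDIT3 +215, chr12:57910377-57910406, minus strand: tgtccctatctATTAAAgtgactttctatg
ASNS +128, chr7:97481443-97481472, minus strand: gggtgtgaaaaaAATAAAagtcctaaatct
CHAC1 +737, chr15:41248680-41248709, plus strand: ccatactgttacccataaaactatctcttt
DDIT4 +847, chr10:74035764-74035793, plus strand: tacttttctAATAAAcatgtttgttaaaac
SESN2 +1688, chr1:28608972-28609001, plus strand: aAATAAAcgttcgctgaggttttgtttcat
PSAT1 +866, chr9:80944839-80944868, plus strand: ttaaactaaacatttctgttaaattaccct
PHGDH +173, chr1:120286807-120286836, plus strand: caataaccgtctAATAAAgagcctaccccc
SLC7A11 +4788, chr4:139088322-139088351, minus strand: cctaggggacaagagcgcgagacttcatct

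All 9 ends lie in the annotated 3’ UTR of their gene (GENCODE). AATAAA lay within 40 nt upstream of the most used end in 5 members and ATTAAA in 2, DDIT3 and PSAT1, where it begins 30 nt before the end and so outside the bases printed. CHAC1 had neither, nor had SLC7A11. Among 7874 genes that averaged 20 reads or more across the libraries, 67.6% had AATAAA, 16.7% ATTAAA and 15.7% neither. PSAT1 and SLC7A11 had fewer reads and are not in this set. The ends of DDIT3, CHAC1, SESN2 and PHGDH were 1 to 2 nt from the end of the canonical transcript and that of ATF4 was 3 nt from it, whereas the PSAT1 and ASNS ends were 141 and 454 nt upstream of it. The single SLC7A11 end, with 16 reads in all libraries, was 3071 nt upstream of an annotated end that lies 7859 nt after the stop codon. That annotated end is outside the 5000 nt in which the authors assigned ends to a gene, so that SLC7A11 RNA ending there is not in these values. The 30 bases of the ATF4 end occur 3 times in the genome and those of the ASNS end 2 times, so that reads could be shared with the copies. DDIT3 overlaps MARS1 and MBD6 on the opposite strand and a coding gene without a symbol on its own strand, whose reads could be counted with those of DDIT3.

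The levels in the text are CPM, reads scaled to 1 M per library with TMM factors that set most genes level between libraries, and tests were made with limma on log2 values over 9494 genes, with Benjamini-Hochberg adjustment and 0.05 as the threshold. Of the 8 members tested, 2 passed, ASNS and CHAC1, both lower in R749H. Over all genes tested, 25.1% passed (11.3% higher and 13.8% lower), and 2 of 8 is 25%, so that the members passed about as often as other genes did. The median log2 change was -0.34 over the 8 members and -0.06 over all genes; 7 members were below 0 and 1, PHGDH, was above. In bulk RNA, fewer cells that use a gene and less RNA per cell cannot be told apart.

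ATF4 itself had high and similar counts in both groups. It was at 1041, 1305, 1103, 1383 and 1519.9 CPM in wild-type replicates 1 to 5 and at 1172, 1121, 906 and 1484 in R749H replicates 1 to 4. The groups overlapped almost wholly, with only the third R749H library below all wild-type libraries. The log2 change was -0.13 ± 0.18 (SE; limma, adjusted p = 0.645), and without the third R749H library it was 0.02.

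DDIT3, the CHOP factor that partners other C/EBP proteins, was much lower in reads than ATF4. It was at 39.7, 25.5, 27.1, 25 and 31.3 CPM in wild-type and at 18.8, 21.9, 14.1 and 32.5 in R749H. Of the R749H libraries, 3 were below all wild-type libraries and replicate 4 was inside their range. The log2 change of -0.48 ± 0.24 (SE; limma, adjusted p = 0.149) did not pass.

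ASNS makes asparagine from aspartate and glutamine and is a classical target of ATF4. It was at 1269.6, 1417, 1334, 1413 and 803 CPM in wild-type and at 935, 722, 485 and 842 in R749H. The fifth wild-type library stood below the other wild-type libraries and below 2 of the R749H libraries, and the groups otherwise did not overlap. The mean fell from 1247 ± 256 (SD, n = 5) to 746 ± 195 (SD, n = 4), a log2 change of -0.75 ± 0.21 (SE; limma, adjusted p = 0.0145). The call was lost without the second R749H library (log2 change -0.73, adjusted p = 0.0509) and without replicate 3 of R749H (-0.53, adjusted p = 0.0679), and the change was -0.91 without the fifth wild-type library (adjusted p = 0.00205).

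CHAC1, which degrades glutathione and is induced through ATF4, had the largest change of the members tested. It was at 16.6, 22.1, 23.8, 27.6 and 34.8 CPM in wild-type and at 16.9, 8.77, 7.19 and 2.54 in R749H. The first R749H library lay just inside the wild-type range and the others were below it. R749H replicates 2 to 4 had 32, 27 and 11 CHAC1 reads, against 52 to 303 reads in the wild-type libraries. The mean fell from 25 ± 6.75 (SD, n = 5) to 8.84 ± 5.97 (SD, n = 4), and the log2 change was -1.68 ± 0.37 (SE; limma, adjusted p = 0.00304). The log2 change ranged from -2.06 to -1.20 as single libraries were left out and it passed each time, with -1.20 without the fourth R749H library (adjusted p = 0.0109).

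DDIT4 (REDD1) and SESN2 restrain mTORC1, the growth kinase complex, and both are induced by stress. DDIT4 was at 103, 109.8, 112, 135 and 193 CPM in wild-type and at 109.2, 89.3, 116 and 94.5 in R749H. SESN2 was at 171, 144, 185, 183 and 149 CPM in wild-type and at 169, 124, 102 and 128 in R749H. For SESN2, 3 R749H libraries were below all wild-type libraries, and for DDIT4 2 were. Neither passed: the log2 change was -0.32 ± 0.20 (SE; limma, adjusted p = 0.240) for DDIT4 and -0.36 ± 0.18 (SE; limma, adjusted p = 0.139) for SESN2.

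PHGDH and PSAT1 catalyze the first steps of serine synthesis from a glycolytic intermediate, and they differed widely in reads. PHGDH was at 1280.1, 1059, 1219, 1012 and 1251 CPM in wild-type and at 1533, 1126, 1042 and 1807 in R749H. R749H replicates 1 and 4 were above all wild-type libraries and the other two were inside their range, and the log2 change of 0.21 ± 0.18 (SE; limma, adjusted p = 0.420) did not pass. PSAT1 was at 2.88, 2.71, 5.38, 3.55 and 2.10 CPM in wild-type and at 2.43, 1.92, 3.73 and 3 in R749H, from 7 to 39 reads per library. The groups overlapped, and the log2 change of -0.21 ± 0.36 (SE; limma, adjusted p = 0.71) did not pass.

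SLC7A11 encodes the transport subunit of the cystine/glutamate exchanger. It had 5, 3, 1, 5 and 0 reads in wild-type and 0, 0, 0 and 2 in R749H, too few to pass the filter on low values. In the 4 libraries without a read, a count of 0 allows up to 0.522 to 0.822 CPM (3 reads per library, counting error only), and the first wild-type library, with 5 reads, was at 1.599 CPM. Without the filter, the log2 change was -0.81 ± 0.42 (SE; limma, adjusted p = 0.214).

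**Figure D1:**
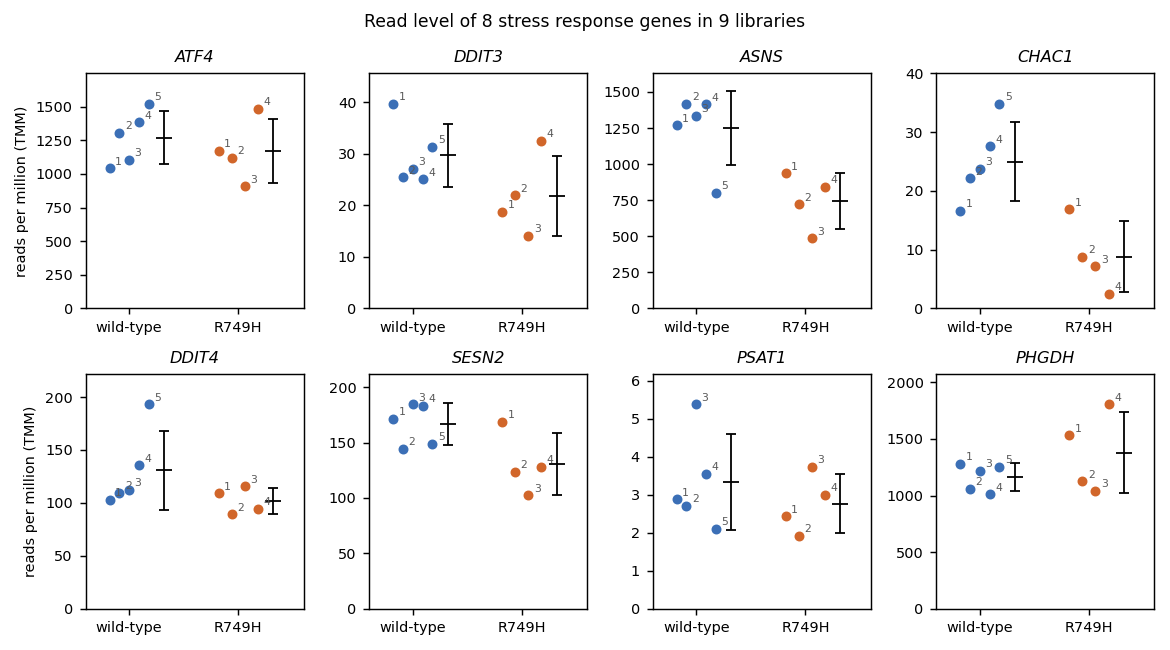
CPM (reads scaled to 1 M) with TMM factors (vertical axes, each from 0) of 8 members in the wild-type (blue, n = 5) and R749H (orange, n = 4) libraries, with the replicate number beside each point and the mean ± SD in black. For CHAC1, 3 of 4 R749H libraries lie below every wild-type library; for ATF4, 1 does.

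The scaling of the libraries moved every member. With the authors' scaling to 7 M poly(A) reads alone, without TMM factors, the median log2 change of all genes was -0.39, lower than with TMM factors by 0.33. The 100 genes with most reads held 54.8 to 57.2% of the reads in R749H and 48.3 to 51.8% in wild-type. On that scale, 6 of 8 members passed, all lower in R749H: ATF4 (log2 change -0.47, limma adjusted p = 0.0209), DDIT3 (-0.82, 0.0140), DDIT4 (-0.66, 0.0140), SESN2 (-0.71, 0.00429), ASNS (-1.10, 0.000283) and CHAC1 (-2.01, 0.000504). Of 9472 genes, 33.6% passed on that scale, 4.71% higher and 28.9% lower, so that 14% of the calls were higher in R749H, against 45% with TMM factors. PHGDH changed direction, from 0.21 to -0.13. A change of scale moves all genes by nearly the same amount. Values relative to the median of all genes are therefore alike by construction and are no further check. So taken, ATF4 was at -0.08 with the authors' scaling and at -0.06 with TMM factors, and ASNS at -0.71 and -0.69. CHAC1 was at -1.62 and -1.62, and PHGDH at 0.26 and 0.27.

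**Figure D2:**
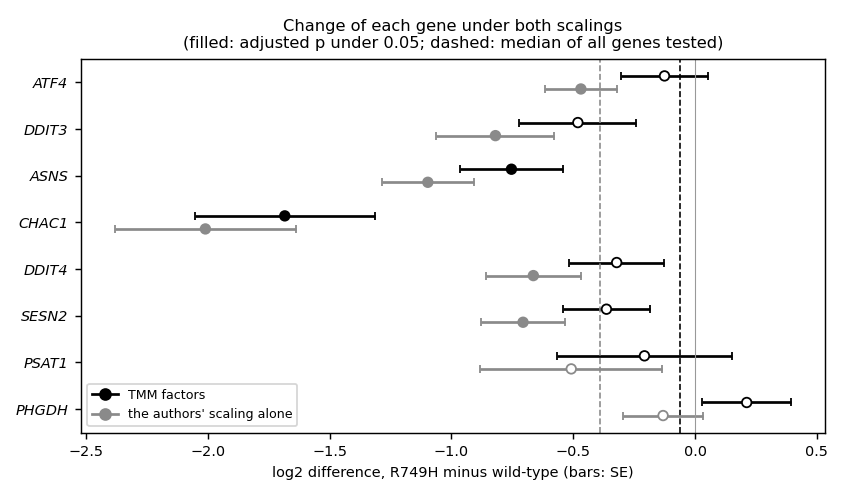
Log2 difference, R749H minus wild-type, of 8 members (horizontal axis; bars are SE from limma) with TMM factors (black) and the authors' scaling alone (grey). Filled points have an adjusted p under 0.05 and dashed lines mark the median of all genes, at -0.06 and -0.39; all members shift left together with that median.

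The 3’ ends of the members differed little between wild-type and R749H. A single end held most reads of each tested member, and its position was the same in both groups. At ATF4 +78 the share was 80.8% ± 0.69 (SD, n = 5) in wild-type and 80.5% ± 2.21 (SD, n = 4) in R749H. At ASNS +128 it was 88.6 to 91.1% of reads in wild-type and 89.0 to 91.1% in R749H, and at PHGDH +173 it was 91.8 to 94.0% and 92.1 to 94.0%. Over the 7874 genes that averaged 20 reads or more, the median share at the most used end was 58.3%.

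Ends a few nt apart were used side by side. ATF4 had a further 16.7 to 18.6% of reads at +83 in wild-type and 16.3 to 20.2% in R749H. SESN2 had 80.3 to 84.2% at +1688 and 7.04 to 11.9% at +1686 in wild-type, and 80.9 to 83.9% and 6.25 to 9.96% in R749H. DDIT3 had 89.2 to 95.2% at +215 in wild-type and 85.8 to 100% in R749H. For each of these ends the R749H and wild-type values overlapped.

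DDIT4 had 24.9, 22.6, 25.3, 22.4 and 23.6% of its reads at +842 in wild-type and 21.7, 21.8, 13.1 and 21.5% in R749H. All R749H libraries were below all wild-type libraries, and the third, which stands apart in its isoforms, was far below the rest. Its share of 13.1% had a Wilson 95% interval of 10.3 to 16.6%. The log2 odds of this end changed by -0.39 ± 0.20 (SE; limma, adjusted p = 0.518) and did not pass; 0.484% of all clusters did.

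CHAC1 was the member with the most dispersed ends, with 62.9% of its reads at +737 and the rest mostly at +740, +743 and +745, all without AATAAA or ATTAAA within 40 nt. The share at +737 was 57.7, 61.3, 65.8, 65.3 and 57.3% in wild-type and 71.1, 75, 44.4 and 36.4% in R749H. Of the R749H libraries 2 were above and 2 below all wild-type libraries, and the 36.4% rests on 4 of 11 reads (Wilson 95% interval 15.2 to 64.6%).

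Of the members, 7 had enough reads for a test of reads downstream of the median end and 10 clusters of ends, in 7 members, for a test of their share (limma on log2 odds). No member passed, with adjusted p from 0.820 to 0.939 for the first test, where no unadjusted p was under 0.05, and from 0.368 to 0.969 for the second, where 1 was. Over all genes, 21 of 7710 passed the first test (0.272%; 0.104% downstream and 0.169% upstream) and 68 of 14039 clusters the second (0.484%; 0.264% with a higher and 0.221% with a lower share). The smallest p was that of the CHAC1 cluster from +737 to +745 against the gene's other ends, with a change in log2 odds of -1.88 ± 0.74 (SE; limma, unadjusted p = 0.0187, adjusted p = 0.368).

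**Figure D3:**
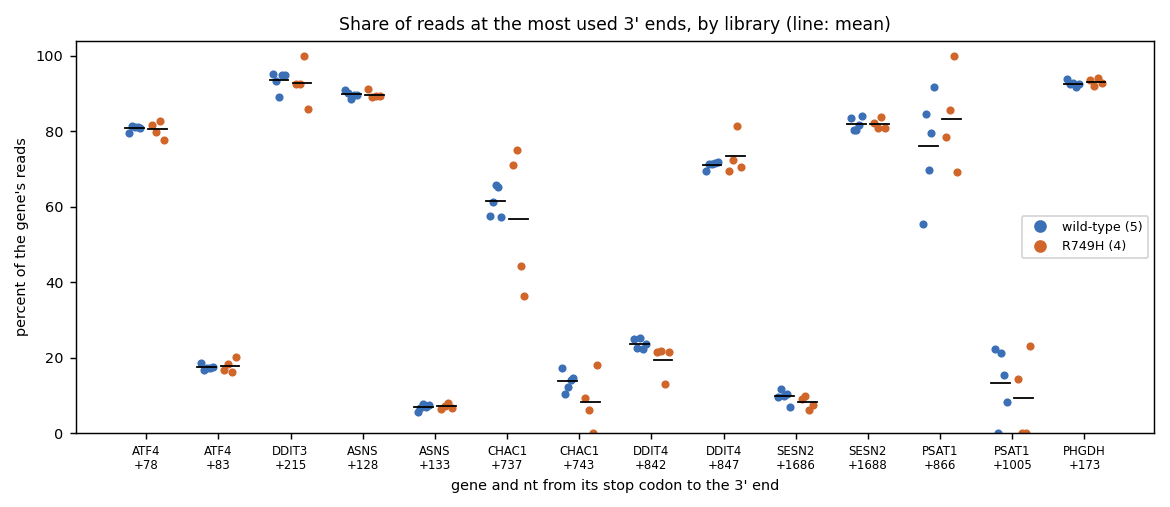
Percent of a gene's reads (vertical axis, 0 to 100) at its 1 or 2 most used 3’ ends, given on the horizontal axis as nt from the stop codon, in wild-type (blue, n = 5) and R749H (orange, n = 4) libraries; lines are means. The spread is narrow for ATF4, ASNS and PHGDH and wide for CHAC1 and PSAT1, which have few reads; DDIT4 +842 has the third R749H library at 13.1%.

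ATF4 binds C/EBP-ATF response elements, which hold TGATGNAA. In RefSeq promoters (GRCh38.p14; 250 bases before to 50 after the gene's start, both strands), 1270 of 35116 (3.62%) held these letters. The table holds 11 promoters of 8 members, and 2 of the 11 held them, 1 of ASNS and that of CHAC1; the other promoter of ASNS and those of ATF4, DDIT3, DDIT4, SESN2, PSAT1 and PHGDH had no match in this window. Whether the letters bear on the changes in expression was not tested. These windows of 30 bases are shown with the match in capitals, on the strand of the gene:
ASNS, chr7:97872458-97872487, 68 nt before the start: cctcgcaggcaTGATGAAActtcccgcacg
CHAC1, chr15:40953251-40953280, 209 nt before the start: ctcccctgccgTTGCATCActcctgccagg
In CHAC1 the match is on the opposite strand. A match is a description of these letters and not a site of binding.

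Around the members on their chromosomes, other genes changed in part in the same direction. Within 5 Mb of SESN2 the median log2 change of 96 tested genes was -0.36, with 3 higher and 23 lower by the test, and SESN2 itself was at -0.36. Within 5 Mb of DDIT3 it was -0.25 over 106 genes (6 higher, 21 lower). Around ASNS it was -0.05 over 78 genes (11 higher, 7 lower) and around CHAC1 0.04 over 60 (7 higher, 4 lower). It was -0.02 over 98 genes around ATF4, 0.02 over 53 around DDIT4, -0.24 over 14 around PHGDH, -0.82 over 9 around PSAT1 and 0.17 over 10 around SLC7A11. The part of chromosome copies in any of these values was not tested.

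The genes whose log2 levels were most like those of ATF4 over the 9 libraries, among 4005 genes, were NOC2L, POLR3A and ATPIF1, with root mean square distances of 0.09, 0.10 and 0.11. Those most like ASNS were IMP4 (0.11), NT5C (0.16) and MOV10 (0.17). Of the other members, SESN2 was nearest to ASNS (0.35) and DDIT4 nearest to ATF4 (0.31).

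Other genes of the pathway were described in 8 lists, of which 103 genes were tested. Of these, 30 passed (29.1%; 13 higher and 17 lower), beside 25.1% of all genes. Of the 30, 15 passed whichever library was left out, and 15 did not. With the authors' scaling alone, 10 of the 13 higher calls were lost and none of the lower ones. No single direction ran through the pathway.

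Of 13 genes of the eIF2 kinases and the eIF2 cycle, 3 were higher and 1 was lower (30.8%, beside 25.1% of all genes). The median log2 change was 0.23. PPP1R15A (GADD34), which recruits the phosphatase that reverses eIF2 phosphorylation, was at 130.2, 219, 208, 244 and 422 CPM in wild-type and 275, 448, 403 and 755 in R749H (log2 change 0.95 ± 0.29, SE; limma, adjusted p = 0.0212). Its call was lost without wild-type replicate 1, R749H replicate 2 or R749H replicate 4. The eIF2 subunits split: EIF2S3 (gamma) was lower (-0.83, limma adjusted p = 0.0208), and EIF2S1 (alpha, 0.72, 0.0361) and EIF2S2 (beta, 0.49, 0.0451) were higher. The EIF2S3 call was lost without the fourth R749H library, and those of EIF2S1 and EIF2S2 without any 1 of 7 of the 9 libraries. The 3 higher genes did not pass with the authors' scaling alone.

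Of 15 partners and early targets of ATF4, 2 were higher and 5 lower (46.7%, beside 25.1% of all genes), with a median of 0.00. XPOT, which exports tRNA from the nucleus, was at 80.0, 19.4, 27.6, 19.5 and 17.1 CPM in wild-type and at 8.35, 5.75, 10.4 and 3.92 in R749H. All R749H libraries were below all wild-type libraries (log2 change -1.96 ± 0.38, SE; limma, adjusted p = 0.00118). NUPR1, a stress-induced chromatin protein, was also without overlap, at 237 to 358 against 55.6 to 176 CPM (-1.33, limma adjusted p = 0.00118), and VLDLR, a lipoprotein receptor, was lower at 1.88 to 5.54 against 0.548 to 2.09 (-1.53, limma adjusted p = 0.0154). VLDLR had 12, 2, 4 and 3 reads in R749H and 9 to 38 in wild-type; its call was lost without the second R749H library, and without wild-type replicate 3, 4 or 5 it did not pass the filter on low values. ATF3, a stress-induced factor of the same family, was higher, at 21.2 to 38.4 in wild-type and 23.3 to 84.6 in R749H (1.03, limma adjusted p = 0.0165). The ATF3 call was lost without R749H replicate 2 or 4 and with the authors' scaling alone. The other calls, named after their values were seen, were CEBPB (0.79; lost with the authors’ scaling alone), EIF4EBP1 (-0.74) and CTH (-0.66; lost without wild-type replicate 4 or 5 or R749H replicate 2 or 4).

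Amino acid genes moved in both directions. Of 13 genes of amino acid synthesis, 1 was higher and none lower (7.69%, beside 25.1% of all genes). It was GOT1, the cytosolic aspartate aminotransferase (0.62, limma adjusted p = 0.0366). The GOT1 call was lost with the authors' scaling alone and without any 1 of 6 libraries. Of 11 transporters, 2 were higher and 3 lower (45.5%), with a median of -0.55. SLC7A5, the light chain of the large neutral amino acid exchanger, was at 125, 94.8, 99.3, 101 and 134 CPM in wild-type and at 298, 197, 197 and 180.3 in R749H. All R749H libraries were above all wild-type libraries (log2 change 0.96 ± 0.19, SE; limma, adjusted p = 0.00127), and it stayed higher with the authors' scaling alone (0.62, adjusted p = 0.0202). Its heavy chain SLC3A2, named after its values were seen, was higher by 0.67 (limma adjusted p = 0.0318; lost with the authors' scaling alone and without any 1 of 5 libraries). The neutral amino acid transporter SLC1A4 (-0.89), the glycine transporter SLC6A9 (-1.12) and the cationic transporter SLC7A3 (-1.64) were lower, with limma adjusted p from 0.00269 to 0.00573, and passed whichever library was left out. SLC7A3 had few reads, 8, 7, 4 and 2 in R749H and 13 to 49 in wild-type. For SLC6A9, R749H replicate 1 was at 144.7 CPM, inside the wild-type range of 142.9 to 179.3.

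Of 20 cytosolic tRNA synthetases, 2 were higher and 5 lower (35%, beside 25.1% of all genes), with a median of -0.03. IARS (isoleucine, -0.92), MARS (methionine, -0.74) and LARS (leucine, -0.73) were below all wild-type libraries in all R749H libraries, and WARS (tryptophan, 0.62) was above them. MARS was at 956 to 1461 CPM in wild-type and at 651 to 711 in R749H (limma, adjusted p = 0.00399). IARS, MARS and LARS passed whichever library was left out and under the authors' scaling, and WARS passed whichever library was left out but not with that scaling (0.28, adjusted p = 0.155). MARS lies on chromosome 12 beside DDIT3, on the opposite strand and overlapping it. The other calls, named after their values were seen, were NARS (-0.62), YARS (-0.61) and FARSA (0.59), and each of these was lost without R749H replicate 2 and at least 2 other libraries left out 1 at a time.

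The remaining lists were called at 20% (sestrins and GATOR, 2 of 10), 25% (ER unfolded protein response, 3 of 12) and 11.1% (NRF2 targets, 1 of 9), beside 25.1% of all genes. Of 10 genes of the sestrins and the GATOR complexes, which relay amino acid levels to mTORC1, SESN1 was higher (14.7 to 22.5 against 30.9 to 37.8 CPM; 0.94, limma adjusted p = 0.00274) and DEPDC5, a GATOR1 subunit, was lower (-1.01, limma adjusted p = 0.0128). SESN1 thus rose while SESN2 was at -0.36 without passing; the difference between them was not tested. Of 12 genes of the ER unfolded protein response, HYOU1, an ER chaperone, was higher (0.68, limma adjusted p = 0.0326) and ERN1 (IRE1, -1.08, 0.0144) and SEL1L, of the ER degradation complex, (-0.90, 0.0482) were lower. HYOU1 was lost with the authors' scaling alone and without any 1 of 4 libraries, ERN1 without the fourth R749H library and SEL1L without any 1 of 7 libraries. Of 9 targets of NRF2, the factor that answers oxidative stress, OSGIN1 was higher, at 1.28 to 4.24 CPM in wild-type and 7.48 to 40.6 in R749H (log2 change 2.89 ± 0.42, SE; limma, adjusted p = 0.000134), and none was lower. OSGIN1 had only 4, 17, 26, 21 and 8 reads in wild-type, and 43, 94, 62 and 176 in R749H.

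**Figure D4:**
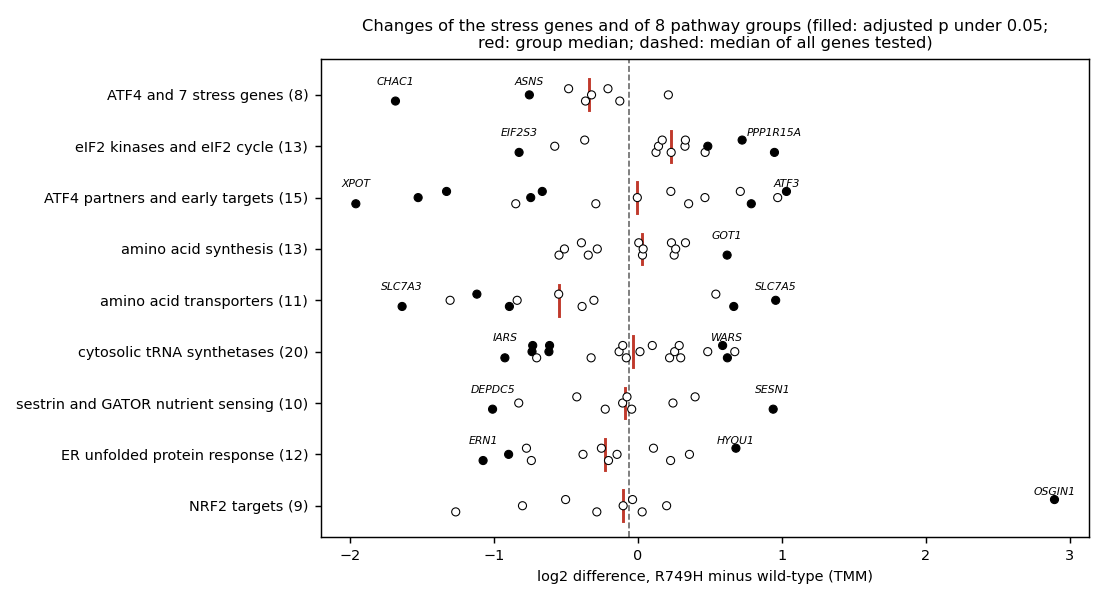
Log2 difference, R749H minus wild-type, with TMM factors (horizontal axis) of each tested gene in 8 members and 8 lists (number tested in parentheses). Filled points have an adjusted p under 0.05, red lines are list medians and the dashed line is the median of all genes at -0.06; calls lie on both sides of 0 in 6 of the 9 groups shown, and the named points are the lowest and highest calls.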

How the data were processed

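After trimming and mapping to hg19 with bowtie, by the study's methods, reads had to end in As that the genome does not encode. The authors gave each 3’ end to the CCDS stop codon up to 5 kb before it. Labels of the series also name Bowtie2 2.3.2, which the paper gives for its NETseq reads. Deposited signal values count the reads of an isoform after the authors' scaling of every library to 7 M. Pooled values and 4 NETseq samples were not used. Division by the smallest step recovered whole reads for 100% of values. Reads were summed per gene, filtered (filterByExpr) and tested with limma-trend 3.58.1 (edgeR 4.0.16 TMM factors, prior count of 2; R 4.3.3). Ends above 5% of the largest isoform and at most 4 nt apart formed clusters. Shares were tested with limma on log2 odds (0.5 reads added, mean of at least 20 reads), with a variance trend on counting noise that was added after the data were seen, when a test on simulated data recovered few changes without it. Alternatives were other scalings, filters and prior counts, edgeR, DESeq2 1.42.0, thinning, other cluster rules, a replicate block and each library left out. The labels number the replicates without naming cultures, and the paper calls them biological replicates. How they were kept apart is not described. The p-values measure the spread between these libraries. Intervals cover counting error only. The members and lists were chosen with earlier results of these data known. All 9 members are described; from each list, up to 4 called genes with the largest change are named, and the 3 genes most like ATF4 and ASNS.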

Additional observations from a re-analysis of the deposited data

Results flagged for a closer look

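In 52 groups of 4 or 5 libraries, CPM and end shares of the members were examined for 1 library far from the rest. By Dixon's ratio of gap to range, 6 were found. Chance gives about 1 in 20 when values are independent and normally distributed. Ends of the same gene share its reads, and a group at 0 in all but 1 library always has a ratio of 1. The 6 can therefore not be set against that rate. ASNS was at 803 CPM in the fifth wild-type library, against 1269.6 to 1417 in the other wild-type libraries. SLC7A11 was at 0.461 CPM, from 2 reads, in the fourth R749H library and at 0 in the other R749H libraries. The DDIT3 share at +215 was 89.2% in the third wild-type library and 93.4 to 95.2% in the others. The CHAC1 share at +745 was 19.2%, from 10 of 52 reads, in the first wild-type library and 5.94 to 9.05% in the others. The DDIT4 share at +842 was 13.1% in the third R749H library and 21.5 to 21.8% in the others. The DDIT4 share at +847 was 69.5% in the first wild-type library and 71.3 to 71.8% in the others.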

How the results depend on the processing

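CHAC1 passed under all 17 alternatives and ASNS under 15. With the authors' scaling alone, 6 members passed and PHGDH turned to -0.131. As single libraries were left out, 1 to 2 members passed, the log2 change of ATF4 was -0.229 to 0.0162, above 0 without R749H replicate 3, and 1637 to 2756 genes passed, against 2380 with all libraries. Same-numbered libraries did not deviate together in gene expression (correlations -0.0824 to 0.0477). Their 3’ ends were not compared in this way, so that pairing by number was not settled. A replicate block, fitted without the fifth wild-type library, gave 2226 genes and 2 members, 62 genes with shifted ends and 173 clusters. Without the block, the same libraries gave 2327 genes and 2 members, 19 genes with shifted ends and 81 clusters. With all libraries, 21 genes had shifted ends and 68 clusters passed. Shifted genes numbered 4 without the variance trend, an alternative added after seeing the data, 49 with a split at the midpoint, 7 with a mean of at least 50 reads and 4 to 39 as libraries were left out. Clusters numbered 8 without the trend and 26 to 120 as libraries were left out. No member's ends passed in any of these, and several of their log2 odds changed sign as libraries were left out. Shifts ranged from -0.0364 to 0.0924 for ATF4, -1.18 to 0.280 for DDIT3, -0.0219 to 0.125 for ASNS, -0.137 to 0.623 for CHAC1 and -0.107 to 0.192 for DDIT4. Cluster shares ranged from -0.0968 to 0.0559 for ATF4 +78, -0.643 to 0.904 for DDIT3 +215, -0.0972 to 0.0306 for ASNS +128 and -0.0194 to 0.329 for DDIT4 +847 to +849. The cause was not tested. VLDLR has values under 12 of the 17 alternatives and PSAT1 under 16, because neither passed the filter on low values in the rest. SLC7A11 and PSAT1 are limited by depth, at 0 to 5 and 7 to 39 reads per library.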
